A study of Mus musculus with 12 samples.

Results

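The p53 target genes described here are 39 genes listed as targets of the transcription factor p53, from the cell-cycle inhibitor Cdkn1a to the costimulatory ligand Cd80. Whether p53 switches on each of them in these mouse tumours was not tested. They were chosen by symbol, as the rows of a count table of 37991 genes whose Ensembl identifiers map to the 39 names. All 39 were in the table, and all 39 were among the 18612 genes that passed a filter on low counts. The levels come from RNA-seq of 12 thymic lymphomas, 4 labelled non-responder and 8 labelled responder, with 1 library per tumour. All 12 came from C57BL/6 mice of the genotype p53neo/R172H;R26CreER/GNZ, so the responders carried the same mutant R172H allele as the non-responders. All the mice received weekly tamoxifen by intraperitoneal injection, which activates the Cre recombinase to restore wild-type p53. The labels sort the tumours by growth or shrinkage on magnetic resonance imaging, and each was collected after its last scan. No tumour from a mouse without tamoxifen is analysed here, so the values compare 2 outcomes of restoration and give no level before it. Replicate numbers only name tumours, and how many cells of each tumour had recombined is not given in the sources used here.

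In thymocytes and T-cell lymphomas p53 is held low by its own target Mdm2, and DNA damage or oncogene activity frees it to bind DNA. Its targets then halt division (Cdkn1a), open the mitochondrial route to cell death (Bbc3, Pmaip1, Bax), raise death receptors (Fas) and aid DNA repair, while others restrain growth signals or alter metabolism. Loss of p53 in mice is known above all for thymic lymphoma, and its restoration in such tumours is known for cell death more than for lasting arrest.

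The responders fell into clear classes by Rag1, a recombinase gene of immature thymocytes, whose level is given in CPM, counts brought to a common library total. Rag1 lay between 168 and 1756 CPM in the 4 non-responders, at 168 CPM in non-responder 2 and 1264 to 1756 CPM in the others. It lay between 0.41 and 2.91 CPM in responders 4 to 8 and between 895 and 1262 CPM in responders 1 to 3, called Rag1-low and Rag1-high responders below. Markers of immature cortical thymocytes, Rag1 among them, summed to 629 CPM in non-responder 2 and 2219 to 3637 CPM in the other non-responders. Their sums were 82.9 to 677 CPM in Rag1-low and 2110.3 to 3017 CPM in Rag1-high responders, so non-responder 2 lay within the range of the Rag1-low ones. The labelled T-cell identity was checked with 12 listed T-cell markers, all measured, whose summed level was 2712 to 3417 CPM in non-responders, 1059 to 2106 CPM in Rag1-low responders and 2222 to 3282 CPM in Rag1-high responders. Markers of 9 other cell kinds (neutrophils, red cells, muscle, fat, macrophages and dendritic cells, B cells, fibroblasts, endothelium and epithelium) summed to 2873 to 3270 CPM in non-responders. They summed to 16929, 9312, 10755, 6025 and 3654 CPM in responders 4 to 8, and to 9589, 3757 and 3632 CPM in responders 1 to 3. Of the 95 such markers 94 were tested, 65 were lower and 1 was higher in non-responders at an unadjusted p under 0.05, and none was at 0 in all 12 tumours. The B-cell markers among them summed to 3758 CPM in responder 4, above its T-cell sum of 1059 CPM. In responders 5 to 8 the B-cell sums were 1067, 1076, 316 and 397 CPM, below the T-cell sums there. They were 1081, 359 and 199 CPM in responders 1 to 3 and 199.6 to 582 CPM in non-responders. Trp53 itself, the gene of p53, was at 63.1 to 73.4 CPM in non-responders and 47.1 to 111 CPM in responders, and these counts do not separate the wild-type from the mutant allele. Libraries held 20796860 to 30265753 counts, and in bulk tumour RNA fewer cells of a type and less RNA per cell cannot be told apart.

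The sequences below show which genes of the set carry letters that p53 is known to bind close to a transcript start. They come from RefSeq windows of GRCm38.p6, 250 bases before to 50 after a transcript start, and 31 of the 39 genes had at least 1. A gene with several starts has several windows and was counted when any of them matched. Both strands were searched for the p53 consensus half-site, a run of 10 bases to which a pair of p53 molecules binds, and 12 of the 31 genes (38.7%) had at least 1, against 2582 of all 27025 genes with a window (9.55%). The members had 1.42 windows per gene and all genes 1.22, and counted by window a half-site was in 13 of 44 (29.5%), against 2745 of 32851 (8.36%). A pair of half-sites at most 13 bases apart, the arrangement bound by a p53 tetramer, was in 1 of the 31 (3.23%) and in 20 of all 27025 (0.074%). That window was the one of Cdkn1a, whose best-known p53 sites lie further upstream, and its 250 bases before the start, at chr17:29090729-29090978 on the plus strand, carry half-sites 73 and 51 bases before the start with a spacer of 12 bases (capitals mark the half-sites).
Cdkn1a: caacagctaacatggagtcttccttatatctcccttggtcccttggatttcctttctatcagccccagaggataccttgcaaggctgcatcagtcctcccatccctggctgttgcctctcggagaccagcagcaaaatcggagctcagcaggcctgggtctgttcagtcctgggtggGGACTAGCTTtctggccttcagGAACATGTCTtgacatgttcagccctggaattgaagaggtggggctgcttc

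Single half-sites, again in capitals and with 20 bases on either side, stood upstream of the start in other members. They are shown for 3 genes whose window lies at the 5′ end of the gene in the annotation or within 25 bases of it, in order at chr8:22185993-22186042 (minus strand), chr7:45467070-45467119 (minus) and chr11:40755442-40755491 (minus).
Ckap2: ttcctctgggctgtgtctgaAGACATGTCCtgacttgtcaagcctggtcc
Bax: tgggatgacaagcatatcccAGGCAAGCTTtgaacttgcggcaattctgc
Ccng1: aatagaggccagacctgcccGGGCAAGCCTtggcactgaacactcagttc
Gadd45a, Ei24 and Aen also had a half-site in a window whose start lies at most 73 bases into the gene. In Sesn1, Polk, Abhd4, Rps27l and Gtse1 the window with the match belongs to a later start, 77504, 23392, 5095, 327 and 201 bases into the gene, and the window of their first RefSeq start held none. The windows of Ddit4, Tigar, Bbc3, Btg2, Ak1, Ephx1, Cd80 and Eda2r held no match, which says nothing of sites elsewhere. For Bbc3, Ephx1 and Cd80 the first window belongs to a start 1190, 3335 and 3372 bases into the gene. The annotated 5′ ends of these genes were thus not searched.

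The comparison of non-responders with responders asks which p53 targets set apart tumours that grew on after restoration. Of the 39 genes 16 had a log2 fold change above 0 and 23 below 0 (59.0%, against 51.5% of all genes tested). Their median was -0.09, against -0.02 over all genes tested (every fold change is non-responder minus responder). The median size of the difference, either way, was 0.42 on the log2 scale for the 39 genes and 0.40 for all genes. None of the 39 passed an adjusted p of 0.05 in edgeR's quasi-likelihood test with Benjamini-Hochberg adjustment, nor did any of the 18612 genes (0%), and the lowest adjusted p among the 39 was 0.117. The words higher and lower below therefore give the side of a difference, not a call.

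At an unadjusted edgeR p under 0.05, 3 of the 39 were higher in non-responders, Ddit4, Btg2 and Ckap2 (7.69%), against 7.73% of all genes. On the other side 7 were lower, Bbc3, Eda2r, Perp, Tigar, Ak1, Ephx1 and Cd80 (17.9%), against 16.1% of all genes. Both shares were close to the background. DESeq2 called 2 higher at an adjusted p under 0.05, Ddit4 and Btg2, against 2.82% of all genes, and 5 lower, Bbc3, Tigar, Ak1, Ephx1 and Cd80, against 10.5%. limma-voom called Ddit4 and Ckap2 higher, against 4.37% of all genes, and Cd80 lower, against 4.48%. Leaving out 1 tumour at a time kept Ddit4, Tigar, Bbc3, Ak1 and Cd80 under an unadjusted edgeR p of 0.05 in all 12 fits. Btg2 and Eda2r were lost without non-responder 1, Ckap2 without non-responder 2 and Ephx1 without non-responder 4, while Perp stayed in 3 of the 12 fits. With the other-cell or the dividing-cell markers as a covariate, Ddit4 and Tigar alone of these 10 kept such a p, and with Rag1 as one Ddit4 alone did.

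**Figure D1:**
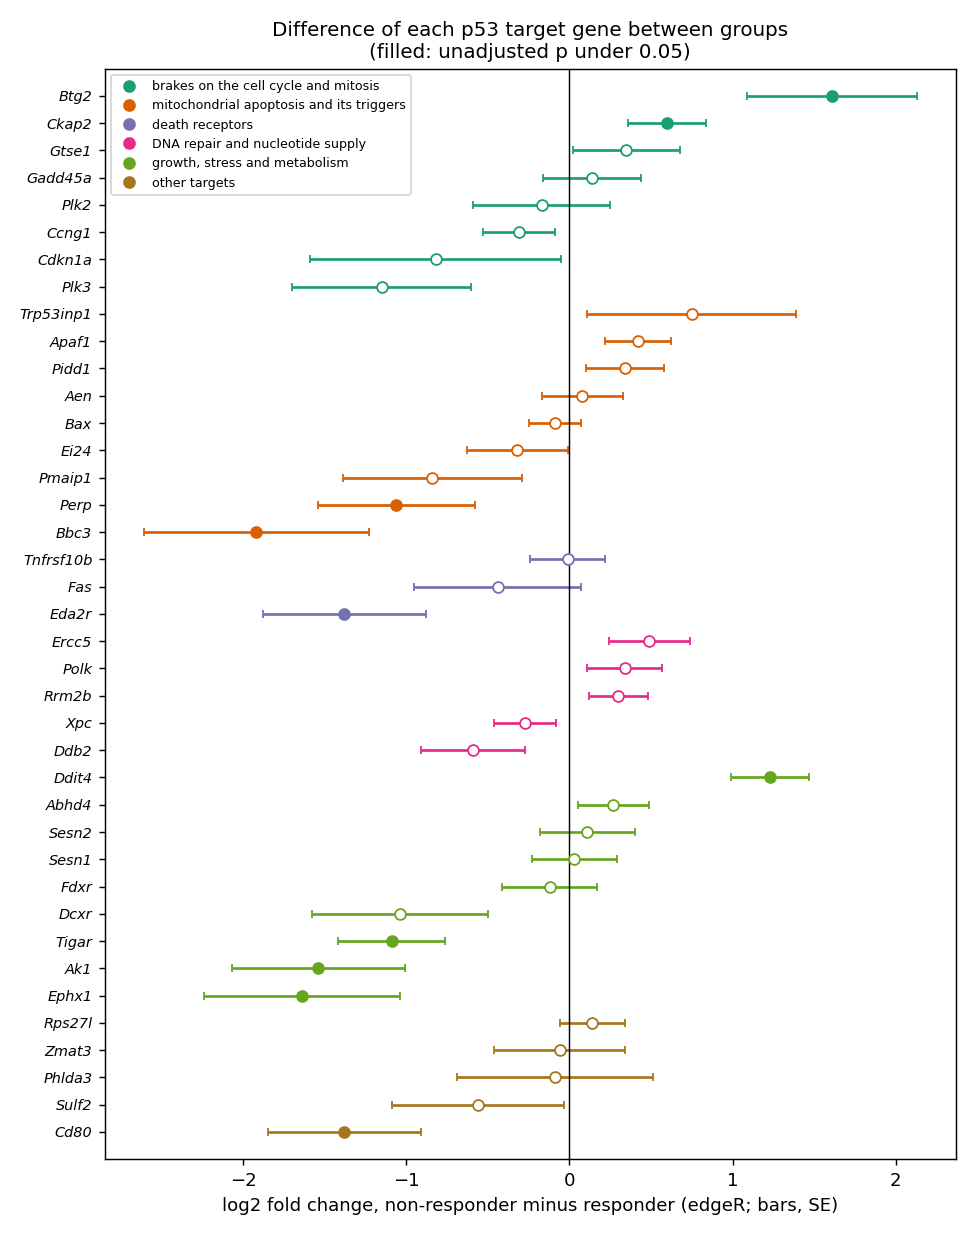
Log2 fold change (non-responder minus responder, x axis) of the 39 p53 target genes, grouped by role, with bars of 1 SE from edgeR on 4 and 8 tumours. Filled points have an unadjusted p under 0.05: 3 lie to the right of 0 and 7 to the left, and every role but DNA repair holds at least 1.

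Among the genes of growth, stress and metabolism, Ddit4 stood out. It encodes REDD1, a stress-induced inhibitor of the growth kinase mTOR. Ddit4 was at 184, 149.7, 218 and 381 CPM in non-responders 1 to 4, against 116, 107, 101, 59.9 and 77.7 CPM in responders 4 to 8 and 125, 112 and 93.6 CPM in responders 1 to 3. Every non-responder thus lay above every responder, in either Rag1 class. The log2 fold change was 1.23 (SE 0.24, edgeR adjusted p = 0.117), a 2.35-fold difference. It was the only one of the 39 with an unadjusted p under 0.05 in all 11 other settings tried, at 1.04 with Rag1 as a covariate and at 1.5 with the other-cell markers as one.

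Tigar, whose product lowers glycolysis by breaking down fructose 2,6-bisphosphate, lay on the other side. Its levels were 7.30, 6.91, 5.84 and 5.22 CPM in non-responders 1 to 4, against 11.7, 12.9, 15.6, 24.5 and 16.7 CPM in responders 4 to 8 and 7.42, 7.81 and 11.1 CPM in responders 1 to 3. The highest non-responder and the lowest responder lay close together, at 7.30 and 7.42 CPM, and under another scaling (RLE) the groups met, at 5.35 to 7.32 CPM in non-responders and 7.27 to 24.5 CPM in responders. The log2 fold change was -1.09 (SE 0.33, edgeR adjusted p = 0.117). It was -1.16 with the other-cell markers as a covariate (p under 0.05) and -0.49 against the Rag1-high responders alone. Ddit4 and Tigar were the only members whose groups did not overlap, 1 on each side of 39 (2.56% each), against 0.951% of all genes on the higher and 1.18% on the lower side.

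Ak1 and Ephx1 were lower in non-responders but overlapped with responders. Ak1, which encodes a cytosolic adenylate kinase, was at 1.15, 1.13, 0.736 and 1.23 CPM in non-responders 1 to 4, against 6.47, 1.56, 4.36, 5.25 and 0.912 CPM in responders 4 to 8 and 2.49, 1.73 and 1.90 CPM in responders 1 to 3. Responder 8 was the one responder within the range of the non-responders (edgeR log2 fold change -1.54, SE 0.53, adjusted p = 0.129), and with the other-cell markers as a covariate the fold change was -0.14. Ephx1, the microsomal epoxide hydrolase, was at 12.9, 12.0, 10.4 and 4.90 CPM in non-responders 1 to 4, against 48.6, 55.5, 63.2, 25.1 and 23.0 CPM in responders 4 to 8 and 17.8, 11.6 and 5.06 CPM in responders 1 to 3. Here the Rag1-low responders were high and responders 2 and 3 lay among the non-responders. The log2 fold change of Ephx1 was -1.64 (SE 0.60, edgeR adjusted p = 0.137), and it was -0.22 against the Rag1-high responders alone and -0.12 with the other-cell markers as a covariate.

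The other 5 genes of this role had no unadjusted edgeR p under 0.05. Dcxr, a dicarbonyl and xylulose reductase, had a log2 fold change of -1.04 (SE 0.54) and was at 1.73 to 4.88 CPM in non-responders, against 5.12 to 12.1 CPM in Rag1-low and 1.60 to 5.31 CPM in Rag1-high responders. The sestrin genes Sesn1 and Sesn2, whose products also restrain mTOR signalling, differed by 0.03 (SE 0.26) and 0.11 (SE 0.29). Of these 3 inhibitors of mTOR signalling, only Ddit4 had an unadjusted p under 0.05. Fdxr, the mitochondrial ferredoxin reductase, differed by -0.12 (SE 0.29), and Abhd4, a lipid hydrolase, by 0.27 (SE 0.22).

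Among the genes of the cell cycle and mitosis, Cdkn1a, the gene of the kinase inhibitor p21, was low everywhere and spread most of the 39. It was at 0.642, 1.13, 8.79 and 4.58 CPM in non-responders 1 to 4, against 12.4, 3.40, 6.09, 11.5 and 2.82 CPM in responders 4 to 8 and 3.66, 1.03 and 12.8 CPM in responders 1 to 3. The highest tumour was 19.9 times the lowest, both groups held low and high tumours, and the log2 fold change of -0.82 was about its own SE of 0.77 (edgeR adjusted p = 0.531). Leaving out non-responder 3 moved it to -1.63, and leaving out non-responder 1 to -0.47. The 12 tumours thus shared no common Cdkn1a level, and neither did the responders among themselves.

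Btg2, an antiproliferative gene whose product recruits the mRNA deadenylase, had higher values in non-responders. Levels were 700.4, 247, 258 and 96.3 CPM in non-responders 1 to 4, against 46.3, 76.1, 46.2, 64.8 and 79.7 CPM in responders 4 to 8 and 258, 163 and 121 CPM in responders 1 to 3. All Rag1-low responders were below all other tumours, while the 3 Rag1-high responders lay within the range of the non-responders. The log2 fold change was 1.61 (SE 0.52, edgeR adjusted p = 0.119), and it was 0.91 without non-responder 1, 0.83 against the Rag1-high responders alone and 0.95 with the other-cell markers as a covariate.

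Ckap2, whose product stabilises the mitotic spindle, was low in the Rag1-low responders, and responder 1 lay within their range. It was at 50.2, 64.5, 46.2 and 52.4 CPM in non-responders 1 to 4, against 23.9, 32.1, 21.8, 33.7 and 32.0 CPM in responders 4 to 8 and 32.5, 60.1 and 44.8 CPM in responders 1 to 3. Responder 2 was the sole responder within the range of the non-responders (edgeR log2 fold change 0.60, SE 0.24, adjusted p = 0.161). The summed level of 12 dividing-cell markers was 3638 to 5900.2 CPM in non-responders, 1878 to 4281 CPM in Rag1-low and 3007 to 5922 CPM in Rag1-high responders. With these markers as a covariate the fold change of Ckap2 was 0.29, and with the other-cell markers as one it was 0.04. Gtse1, a microtubule-binding protein gene of dividing cells, differed by 0.35 (SE 0.33) and was at 17.4 to 41.4 CPM in Rag1-low responders, all below the lowest non-responder at 42.1 CPM.

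None of the remaining genes of this role had an unadjusted edgeR p under 0.05. Plk3, a stress-activated kinase gene, came closest, differing by -1.15 (SE 0.55, edgeR adjusted p = 0.219). It was at 4.04 to 7.64 CPM in non-responders, against 7.38 to 29.2 CPM in Rag1-low and 3.88 to 8.22 CPM in Rag1-high responders. Plk2, its close relative, differed by -0.17 (SE 0.42), the cyclin G1 gene Ccng1 by -0.31 (SE 0.22) and the damage-response gene Gadd45a by 0.14 (SE 0.30). An antisense transcript covers 19.1% of the exon bases of Gadd45a and the gene Tctex1d4 covers 3.3% of those of Plk3, and such reads could not be assigned.

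**Figure D2:**
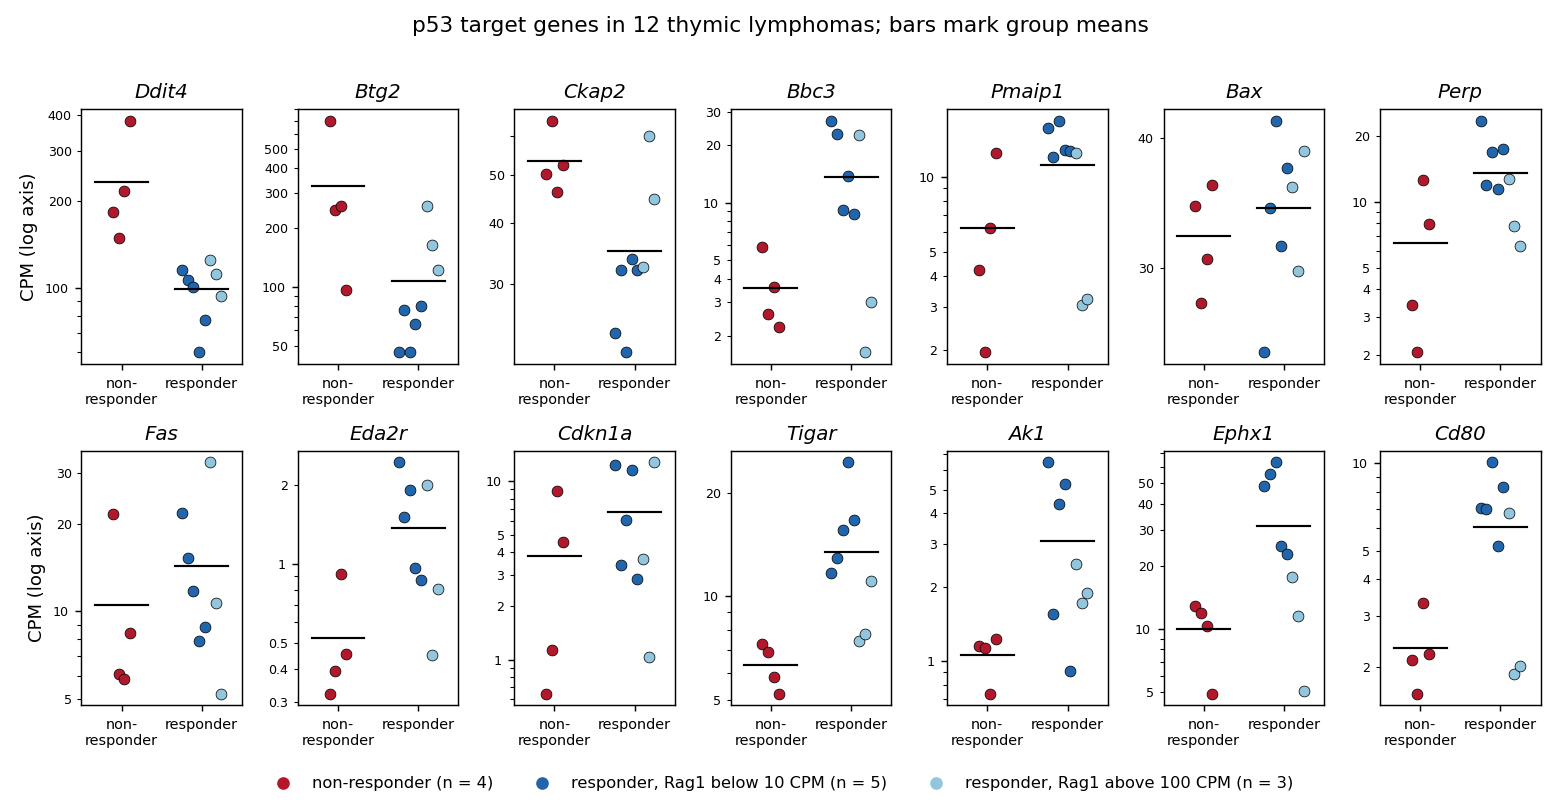
CPM (log axis) of 14 p53 target genes in each tumour: non-responders in red, Rag1-low responders in dark blue and Rag1-high responders in light blue, with bars at group means. Ddit4 and Tigar separate the groups, while for Bbc3 and Cd80 responders 2 and 3 lie with the non-responders and for Bax all groups mix between 24.9 and 41.6 CPM.

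The mitochondrial death genes did not go one way: the trigger Bbc3 had lower values in non-responders, while the pore gene Bax mixed and the scaffold gene Apaf1 had slightly higher ones. Bbc3 encodes PUMA, which frees BAX and BAK from BCL2 proteins and is known as the main p53-induced killer of thymocytes. It was at 5.87, 2.60, 3.63 and 2.22 CPM in non-responders 1 to 4, against 26.9, 22.8, 9.19, 13.8 and 8.77 CPM in responders 4 to 8 and 22.7, 1.64 and 3 CPM in responders 1 to 3. All 5 Rag1-low responders and responder 1 were above every non-responder, but responders 2 and 3 were as low as the non-responders, and responder 2 was the lowest of all 12. The log2 fold change was -1.92 (SE 0.69, edgeR adjusted p = 0.134), and it was -1.38 against the Rag1-high responders alone, where no p under 0.05 was reached. With the other-cell markers as a covariate it was -0.28.

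Pmaip1, the gene of the related trigger NOXA, showed the same responders low. It was at 4.22, 1.96, 6.21 and 12.5 CPM in non-responders 1 to 4, against 15.8, 12.1, 16.9, 12.9 and 12.7 CPM in responders 4 to 8 and 12.5, 3.04 and 3.21 CPM in responders 1 to 3. Non-responder 4 was level with responder 1, so the groups overlapped (edgeR log2 fold change -0.84, SE 0.55, adjusted p = 0.371), and with that tumour left out the fold change was -1.43. Perp, which encodes a membrane protein of cell death and of cell junctions, was at 3.40, 2.06, 12.6 and 7.90 CPM in non-responders 1 to 4, against 23.5, 11.9, 16.9, 11.5 and 17.5 CPM in responders 4 to 8 and 12.7, 7.81 and 6.29 CPM in responders 1 to 3. Non-responder 3 lay within the range of the Rag1-low responders, and non-responder 4 was above responders 2 and 3. The edgeR log2 fold change of Perp was -1.06 (SE 0.48, adjusted p = 0.204), and it was -0.55 with the other-cell markers as a covariate.

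Bax, which encodes the pore of the outer mitochondrial membrane, was the steadiest of the 39 by the ratio of its highest to its lowest tumour. It was at 34.4, 27.8, 30.6 and 36.1 CPM in non-responders 1 to 4, against 24.9, 34.3, 41.6, 31.5 and 37.5 CPM in responders 4 to 8 and 35.9, 29.8 and 38.9 CPM in responders 1 to 3. The highest tumour was 1.67 times the lowest, and the log2 fold change was -0.09 (SE 0.16). Apaf1, the scaffold of the apoptosome, was at 81.3 to 135 CPM in non-responders, against 59.6 to 77.9 CPM in Rag1-low and 96.9 to 117 CPM in Rag1-high responders (edgeR log2 fold change 0.42, SE 0.20, adjusted p = 0.217). The Rag1-low responders, high in Bbc3, were therefore the lowest in Apaf1.

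The 4 other genes of this role had no unadjusted edgeR p under 0.05. Trp53inp1, whose product promotes p53 activity and autophagy, varied 13.5 times between tumours and differed by 0.75 (SE 0.64), or by 0.11 without non-responder 1. It was at 413 to 1786 CPM in non-responders, 132 to 344 CPM in Rag1-low and 326 to 1424 CPM in Rag1-high responders. Pidd1, the scaffold of a caspase-2 complex, differed by 0.34 (SE 0.24), the nuclease gene Aen by 0.08 (SE 0.25) and Ei24, a gene of an endoplasmic reticulum protein, by -0.32 (SE 0.31).

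Of the 3 death receptors only Eda2r, a receptor of the tumour necrosis factor family, had an unadjusted p under 0.05. Eda2r was at 0.321, 0.392, 0.92 and 0.454 CPM in non-responders 1 to 4, against 2.44, 1.51, 1.91, 0.968 and 0.873 CPM in responders 4 to 8 and 2, 0.452 and 0.801 CPM in responders 1 to 3. It had the lowest level of the 39 per length, with a median of 0.152 CPM per kilobase, and non-responder 3 lay among the lower responders (edgeR log2 fold change -1.38, SE 0.50, adjusted p = 0.135). With the other-cell markers as a covariate the fold change of Eda2r was -0.08. Fas, the classical death receptor of lymphocytes, did not separate the groups. It was at 21.7, 6.08, 5.84 and 8.40 CPM in non-responders 1 to 4, against 21.9, 15.3, 11.8, 7.93 and 8.81 CPM in responders 4 to 8 and 32.7, 10.7 and 5.19 CPM in responders 1 to 3. Non-responder 1 and responders 1 and 4 were high, and the log2 fold change was -0.44 (SE 0.51, edgeR adjusted p = 0.615), or -1.07 without non-responder 1. Tnfrsf10b, the receptor of the death ligand TRAIL, covered similar ranges, at 6.38 to 12.1 CPM in non-responders and 6.59 to 10.4 CPM in responders (log2 fold change -0.01, SE 0.23).

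None of the 5 genes of DNA repair and nucleotide supply reached an unadjusted p of 0.05 in edgeR. In 4 of them the Rag1-low and Rag1-high responders did not overlap, 1 higher and 3 lower in the Rag1-low tumours, against 9.31% and 9.32% of all genes. These genes are few and were described after their values were seen. Polk, a translesion polymerase, was at 19.5 to 23.4 CPM in non-responders, 11.8 to 15.9 CPM in Rag1-low and 22.5 to 25.1 CPM in Rag1-high responders. Ercc5, an excision-repair nuclease, was at 22.1 to 32.6, 11.7 to 21.9 and 23.5 to 27.8 CPM in the same order. Rrm2b, the p53-induced subunit of ribonucleotide reductase, was at 25.6 to 29.4, 16.8 to 22.7 and 24.6 to 30.1 CPM. In these 3 the Rag1-low responders lay below the Rag1-high ones and below the lowest non-responder. Ddb2, a sensor of ultraviolet damage, showed the opposite order, at 15.3 to 21, 27.2 to 40.5 and 9.66 to 20.4 CPM, although the gene Acp2 covers 23.8% of its exon bases on the other strand. Log2 fold changes were 0.34 (SE 0.23) for Polk, 0.49 (SE 0.25) for Ercc5, 0.30 (SE 0.18) for Rrm2b, -0.59 (SE 0.32) for Ddb2 and -0.27 (SE 0.19) for Xpc, a partner of Ddb2 in damage recognition.

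Among the other targets, Cd80, the ligand of the T-cell surface proteins CD28 and CTLA4, resembled Bbc3 in which tumours were low. It was at 2.11, 1.62, 3.31 and 2.22 CPM in non-responders 1 to 4, against 7.06, 6.96, 10.1, 5.21 and 8.29 CPM in responders 4 to 8 and 6.78, 1.89 and 2.02 CPM in responders 1 to 3. Responders 2 and 3 again lay with the non-responders (edgeR log2 fold change -1.38, SE 0.47, adjusted p = 0.127). Antigen-presenting cells also express Cd80, and the summed macrophage and dendritic-cell markers were 683 to 1857 CPM in non-responders, 1620 to 3511 CPM in Rag1-low responders and 4625, 889 and 669.5 CPM in responders 1 to 3. Responder 1 was thus high and responders 2 and 3 were low in these markers as well. With the markers of all 9 other cell kinds as a covariate the fold change of Cd80 was -0.82, and the part of macrophages alone was not tested.

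The last 4 genes did not separate the groups. Phlda3, an inhibitor of the survival kinase AKT, differed by -0.09 (SE 0.60), or by -1.15 without non-responder 2, with the highest levels at 18.5 CPM in non-responder 2 and 18.6 CPM in responder 4. Zmat3, an RNA-binding regulator of splicing, differed by -0.06 (SE 0.40) and ranged over 11 to 17.5 CPM in non-responders and 3.82 to 30.6 CPM in responders. Sulf2, an extracellular sulfatase, differed by -0.56 (SE 0.53), or by -1.29 without non-responder 3. Rps27l, a ribosomal protein gene with a near-identical relative that could share reads, differed by 0.14 (SE 0.20).

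Between Rag1-low and Rag1-high responders, 3 of the 39 were higher in every Rag1-low tumour, Ddb2, Tigar and Ephx1 (7.69%), against 9.31% of all genes. Another 5 were lower in every one, Btg2, Apaf1, Polk, Ercc5 and Rrm2b (12.8%), against 9.32%. On both sides together this was 20.5% of the members, near the 18.6% of all genes. The split was made from a measured gene and is a description with no test. Responder 1, Rag1-high, had levels of Bbc3, Cd80, Eda2r and Fas within or above the range of the Rag1-low responders, and its other-cell marker sum of 9589 CPM lay within their range.

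Set against the 3 Rag1-high responders, non-responders did not overlap for Ddit4 (higher, against 3.14% of all genes) or for Tigar and Ak1 (lower, against 3.07%). In edgeR on these 7 tumours, Ddit4 was the 1 member higher at an unadjusted p under 0.05 (log2 fold change 1.07), against 1.93% of 17470 genes. Ak1 was the 1 lower (-0.96), against 3.55%. No member passed adjustment (lowest adjusted p 0.884), and the median log2 fold change was -0.03. The fold change shrank for Ephx1, Plk3 (0.03), Dcxr (0.01) and Pmaip1 (-0.03), and it kept a size above 1 for Eda2r (-1.07) as for Bbc3. Eda2r and Bbc3 also had non-responder and Rag1-high levels that overlapped, and in both only responder 1 of the 3 lay above every non-responder. With 3 responders left, these values say little on their own.

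**Figure D3:**
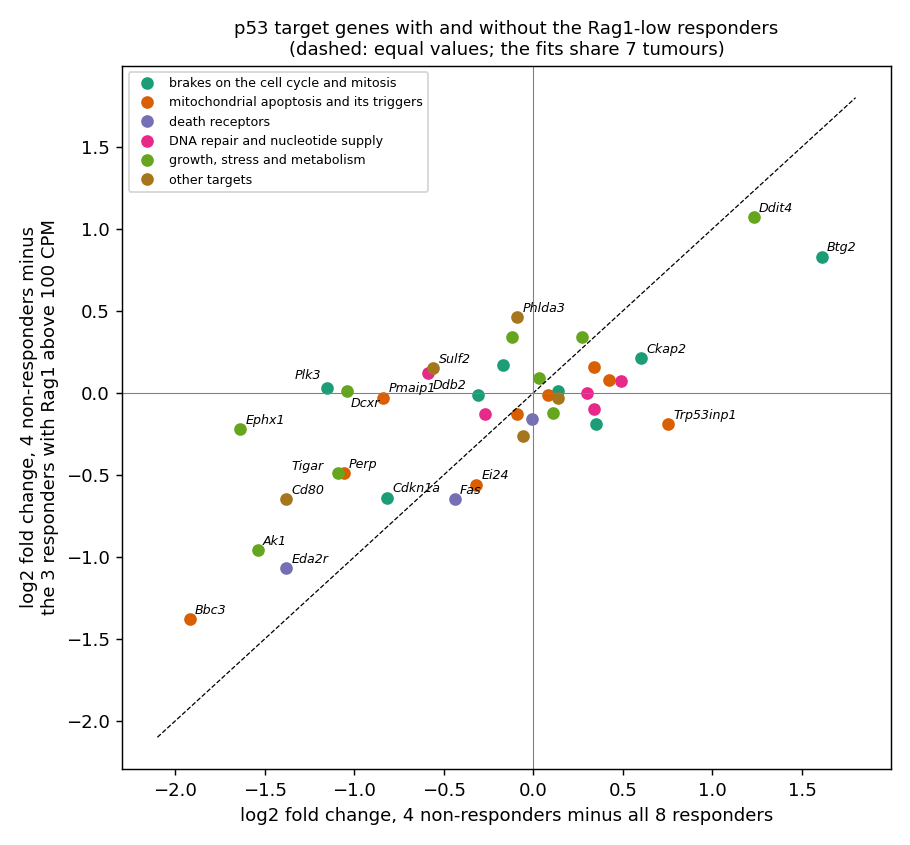
Log2 fold change (non-responder minus responder) of the 39 genes with all 8 responders (x axis) and with the 3 Rag1-high responders alone (y axis), where the 4 non-responders enter both. Ddit4 lies near the dashed line of equal values, at 1.23 and 1.07, while Ephx1 (-1.64 and -0.22) and Plk3 (-1.15 and 0.03) lie near 0 on the y axis.

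Seen by tumour, no tumour was low or high in the whole set. Responder 4, with the highest other-cell sum, held the highest level of 9 of the 39 genes (23.1%), against 18.7% of all genes. Non-responder 2 and responders 2 and 3 each held the lowest level of 6 (15.4%), against 11.2%, 8.91% and 8.26% of all genes. Non-responder 2 was lowest in Pmaip1, Perp, Cd80, Xpc, Tnfrsf10b and Abhd4, and responder 2 in Bbc3, Ccng1, Zmat3, Sesn2, Phlda3 and Sulf2. The mean deviation of the 39 genes from their 12-tumour means was -0.30 on the log2 scale in non-responder 2 (all genes -0.14) and -0.34 in responder 2 (all genes -0.13). At the other end it was 0.35 in responder 4 (all genes 0.28) and 0.28 in responder 1 (all genes 0.15). The lowest and the next-lowest tumour were therefore 1 responder and 1 non-responder.

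**Figure D4:**
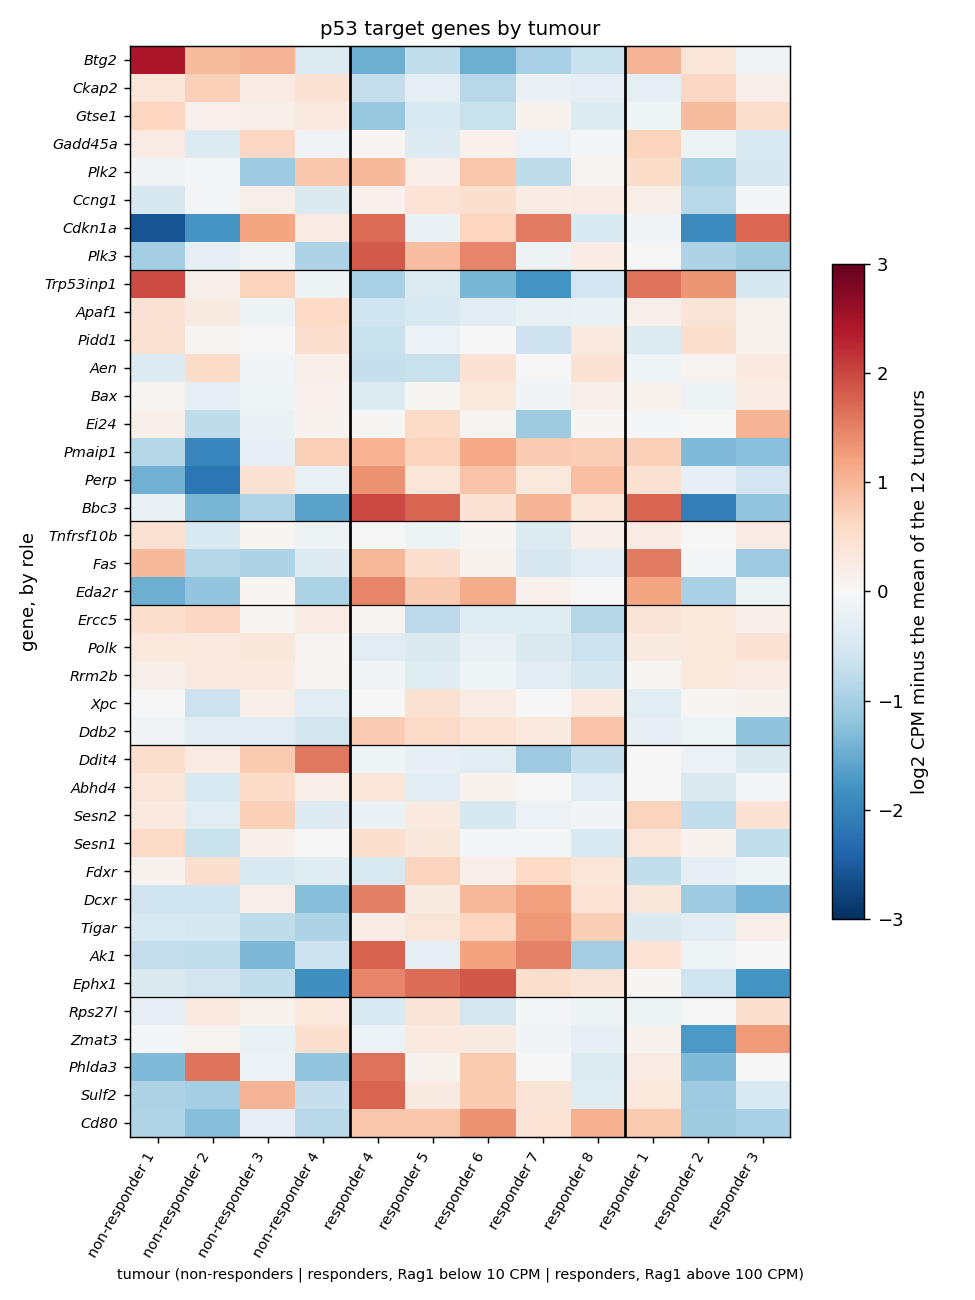
Log2 CPM of each gene minus its mean over the 12 tumours, with genes in rows by role and tumours in columns (non-responders, Rag1-low responders, Rag1-high responders). Red is above and blue below the gene's mean, and responders 2 and 3 resemble the non-responders in Bbc3, Pmaip1 and Cd80, while the Rag1-low responders share low Btg2, Polk, Ercc5 and Rrm2b.

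Levels per length, as the median CPM per kilobase of exon over the 12 tumours, spanned the set widely. Rps27l (104), Ddit4 (64.8), Trp53inp1 (58.5), Ccng1 (47.1) and Btg2 (39.6) led, and Bax was at 21.8. The death triggers were far lower, with Pmaip1 at 4.49 and Bbc3 at 3.45. Cdkn1a (1.16), Cd80 (1.15), Zmat3 (1.12), Ak1 (0.633) and Eda2r (0.152) were the lowest.

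Of 28 further genes of the p53 pathway listed beside the 39, 27 were in the table, Sco2 was listed at 0 in all 12 tumours, and 26 were tested. No gene passed adjustment, 15 were above and 11 below 0, and the median log2 fold change was 0.10. The genes with an unadjusted edgeR p under 0.05 were 4 on the higher side (15.4%, against 7.73% of all genes) and 3 on the lower (11.5%, against 16.1%). Mdm2, the ubiquitin ligase of p53, had levels of 85.9 to 154 CPM in non-responders and 54.6 to 92 CPM in responders (edgeR log2 fold change 0.60, SE 0.19, adjusted p = 0.118). Bid, a BH3 protein cut by caspases, differed by 0.95 (SE 0.38) and Triap1, an inhibitor of apoptosis, by 0.62 (SE 0.22). Bid was at 54 to 140.4 CPM in non-responders, 24 to 35.2 CPM in Rag1-low and 49.5 to 83.1 CPM in Rag1-high responders. Against the Rag1-high responders alone Mdm2 differed by 0.36, Bid by 0.28 and Triap1 by 0.5. None kept an unadjusted edgeR p under 0.05 there. Bid and Triap1 also lost it without non-responder 4 and with each covariate, and Mdm2 with the other-cell markers as one. On the lower side, Ccnd2, the gene of cyclin D2, was at 4.99 to 19.6 CPM in non-responders, 143 to 519.9 CPM in Rag1-low and 10.4 to 50.7 CPM in Rag1-high responders (edgeR log2 fold change -4.22, SE 0.99, adjusted p = 0.117). Dram1, an autophagy gene, differed by -1.42 (SE 0.49) and Casp1, the inflammatory caspase, by -1.61 (SE 0.61), or by -2.22 without non-responder 3. Both were highest in responders 4 and 1, at 43.6 and 37.4 CPM for Dram1 and 23.2 and 31.3 CPM for Casp1. Both lost an unadjusted edgeR p under 0.05 with each covariate and against the Rag1-high responders alone, and Casp1 also without non-responder 1 or 4. With the other-cell markers as a covariate the fold change of Dram1 was 0.08. That of Casp1 ranged from -1.82 to -0.07 over the 11 other settings. The macrophage and dendritic-cell markers had their highest sums in the same tumours, and the part of these markers alone was not tested.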

How the data were processed

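The authors deposited 1 table of raw counts per Ensembl gene for the 12 tumours, whole numbers with no normalization. Per the labels' protocols, 75-base reads were sequenced with 4 libraries to a lane, and HTSeq and DESeq are named, with no version, in the submitters' processing notes. The build is unsettled (NCBIM37 in the notes, mm10 in the labels), and the sources used here give neither the aligner nor the use of strand. Symbols, lengths and overlaps came from GENCODE M21 on GRCm38, and 5072 identifiers without a symbol held 2.49% to 3.80% of the counts per tumour.

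Counts were filtered with filterByExpr, scaled by TMM and tested with edgeR 4.0.16 in R 4.3.3 (quasi-likelihood F test, robust, two-sided, group the sole term), with Benjamini-Hochberg adjustment over 18612 genes. SEs came from the F statistic, and the prior count for log2 CPM was 2. Alternatives were other scalings (RLE, upper-quartile), other filters (none, or at least 1 CPM in 4 libraries), dispersions without robust fitting, limma-voom (limma 3.58.1), DESeq2 1.42.0, covariates for Rag1, other-cell and dividing-cell markers, the 7 tumours above 100 CPM of Rag1 (responders below 10 CPM left out), and leaving out each tumour. Scripts were tested on simulated data.

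The members and gene lists were chosen with earlier results of these data known. Values of every tumour are given for members with an unadjusted p under 0.05 or without overlap and for Cdkn1a, Bbc3, Pmaip1, Bax and Fas. The series' design text states that the tumours are independent, and no batch is named. Of the further pathway genes, 1 that is counted is not reported here by name.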

Additional observations from a re-analysis of the deposited data

Results flagged for a closer look

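The rule for a tumour far from the others of its group was applied to 78 groups, the 39 genes in the non-responders and in the responders, and chance flags about 1 in 20 groups. It marked 3 values. Sulf2 was at 37.5 CPM in non-responder 3, where the other non-responders were at 9.17 to 11.4 CPM. Ak1 was at 0.736 CPM in non-responder 3, where the other non-responders were at 1.13 to 1.23 CPM. Ccng1 was at 83.9 CPM in responder 2, where the other responders were at 144 to 212 CPM.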

How the results depend on the processing

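The count of members with an unadjusted p under 0.05, 3 higher and 7 lower in non-responders, was 1 and 0 with Rag1 as a covariate, 1 and 1 with the other-cell or the dividing-cell markers as one, 1 and 1 in the tumours above 100 CPM of Rag1, and 8 and 11 in limma-voom. With 1 tumour left out it lay at 2 to 5 higher (5 without responder 1 or 2) and 5 to 10 lower. Adjusted calls were 0 in edgeR under every setting run, 7 in DESeq2 and 3 in limma-voom. Members without overlap were 2, 1 under RLE scaling, and 2 to 3 with 1 tumour left out. The members' median log2 fold change stayed at -0.20 to -0.02. Over all genes tested the median moved most without a filter (-0.11). Ddit4 was at 0.89 to 1.42 with 1 tumour left out.

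With Rag1 as a covariate, signs turned for Plk2 (0.19), Gtse1 (-0.14), Trp53inp1 (-0.20), Ddb2 (0.08), Polk (-0.03), Sesn2 (-0.15), Fdxr (0.30), Dcxr (0.03), Phlda3 (0.53), Rps27l (-0.02) and Sulf2 (0.13). With the dividing-cell markers they were Plk2 (0.41), Gtse1 (-0.09), Aen (-0.01), Dcxr (0.04), Phlda3 (0.77), Rps27l (-0.08) and Sulf2 (0.37). With the other-cell markers they were Plk2 (0.72), Plk3 (0.38), Gtse1 (-0.54), Aen (-0.30), Pidd1 (-0.15), Fas (0.56), Dcxr (0.01), Phlda3 (1.25), Rps27l (-0.08), Sulf2 (0.91) and Dram1 (0.08). In the tumours above 100 CPM of Rag1 they were Plk2 (0.17), Plk3 (0.03), Gtse1 (-0.19), Aen (-0.01), Trp53inp1 (-0.19), Ddb2 (0.12), Polk (-0.10), Sesn2 (-0.12), Fdxr (0.34), Dcxr (0.01), Phlda3 (0.46), Rps27l (-0.03) and Sulf2 (0.15). Tnfrsf10b turned to 0.01 in DESeq2 and under RLE and to 0.05 without a filter, Sesn1 to -0.03 under upper-quartile scaling and -0.05 in limma-voom, and Zmat3 to 0.05 in limma-voom. With 1 tumour left out, signs turned for Sesn1 (-0.18 to 0.23), Phlda3 (-1.15 to 0.24), Aen (-0.09 to 0.22), Tnfrsf10b (-0.19 to 0.13), Gadd45a (-0.04 to 0.29), Plk2 (-0.55 to 0.09), Sesn2 (-0.12 to 0.26), Fdxr (-0.31 to 0.03) and Zmat3 (-0.20 to 0.21). The cause was not tested.

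With 4 non-responders, few reads for Eda2r and Ak1, and Rag1-low tumours in 1 group only, response cannot be told apart from Rag1 class in the full comparison. No paired analysis was possible because replicate numbers only name tumours.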

Other observations

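Tigar (chromosome 6, 127085116 to 127109557) and Ccnd2 (chromosome 6, 127125162 to 127152193, GENCODE M21 on GRCm38) are neighbouring genes. In both, non-responders were lower than responders (log2 fold change -1.09, SE 0.33, for Tigar and -4.22, SE 0.99, for Ccnd2, neither passing adjustment). In both, every Rag1-low responder lay above every Rag1-high responder, at 11.7 to 24.5 against 7.42 to 11.1 CPM for Tigar and 143 to 519.9 against 10.4 to 50.7 CPM for Ccnd2. The same order of responders held for 9.31% of all genes, and 16.1% were lower in non-responders at an unadjusted edgeR p under 0.05. Responder 7 was the highest of the 12 tumours in both genes, at 24.5 CPM of Tigar and 519.9 CPM of Ccnd2. The pair was chosen after its values were seen.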
